A study of Mus musculus with 8 samples.

Results

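The 10 genes described here are the mouse genes of major histocompatibility complex (MHC) class I that were chosen by symbol: the classical heavy chains H2-K1 and H2-D1, the non-classical heavy chains H2-Q1, H2-Q4, H2-Q7, H2-T3, H2-T22, H2-T23 and H2-M3, and the shared light chain B2m. The choice was made with earlier results of these data known. The genes are 10 of 55487 in a table of TPM values, transcript abundance per gene length scaled to a fixed sum in each library. The table covers RNA of colon epithelium in 8 libraries, 4 labelled PIM1+/- and 4 labelled wild type (WT), both on the C57BL/6J strain and with no treatment named. Pim1 encodes a serine/threonine kinase, and PIM1+/- denotes 1 altered allele, whose structure the labels do not describe. The labels also leave out the age and sex of the mice, how the epithelium was separated (the extraction protocol speaks of tissue) and whether each library came from its own animal, so the p-values below measure the spread between these libraries only.

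A class I molecule is a heavy chain held together with beta-2-microglobulin, the product of B2m, and classical heavy chains carry peptides cut by the proteasome to the cell surface, where CD8 T cells read them. Non-classical heavy chains vary less between individuals and often bind receptors of innate-like lymphocytes. In the gut, one of them, the thymus leukaemia (TL) antigen encoded by H2-T3, is known for its abundance on intestinal epithelium and its binding of the CD8 alpha homodimer on intraepithelial lymphocytes.

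Pim1 itself, the gene named in the genotype, did not separate the libraries. It had 7.97, 7.23, 5.64 and 5.84 TPM in PIM1+/- replicates 1 to 4, against 8.79, 7.86, 5.72 and 8.83 TPM in WT replicates 1 to 4. The groups overlapped and the log2 fold change of -0.19 ± 0.15 (SE) did not pass the test (limma adjusted p = 0.411). Each library had 12582 to 12850 genes at 1 TPM or more, and read depth cannot be recovered from TPM. The epithelial label was checked with 10 markers, all tested, whose TPM summed to 16449 to 17439 in PIM1+/- libraries and 15002 to 15773 in WT libraries. Of the 10, 6 were higher in PIM1+/- libraries and 0 lower, with a median log2 fold change of 0.23. Among all genes tested 8.93% were called higher and 8.54% lower. Krt20, a keratin of differentiated colon epithelium, and Cdx2, an intestinal transcription factor, were each higher by 0.62 on the log2 scale, Krt18 by 0.39, Vil1 by 0.36, Krt8 by 0.25 and Krt19 by 0.21. Epcam, the epithelial adhesion molecule, had a log2 fold change of 0.07 and was not called. Phgr1, Cdh1 and Lgals4 had negative log2 fold changes of -0.21, -0.09 and -0.07 and were not called either. Markers of fibroblasts and muscle summed to 0.37 to 2.36 TPM in PIM1+/- libraries and 0.54 to 0.88 TPM in WT libraries, with Lum listed at 0 in every library. The summed markers of T cells, NK cells and intraepithelial lymphocytes also kept apart by genotype, and their values are given further below.

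The promoters of these genes are shown first. Whether any motif goes with the changes that follow was not tested. RefSeq promoter sequences of GRCm38.p6, from 250 bases before to 50 after the start site, were found for 9 of the 10 genes, all but H2-Q1. Each was searched on both strands for the core of the interferon-stimulated response element, the site of interferon regulatory factors, in the 2 spacings GAAANNGAA and GAANNGAAA, and for GGGATTCCC, a form of the NF-kappa B site. GAANNGAAA and GGGATTCCC were added after the promoters had been read. Stretches of 74 bases around the match are printed 5′ to 3′ on the gene's own strand, with matches in capitals.
H2-K1, chr17:34000409-34000482, minus strand: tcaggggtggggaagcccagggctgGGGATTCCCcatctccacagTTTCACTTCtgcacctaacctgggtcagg
H2-D1, chr17:35262899-35262972, plus strand: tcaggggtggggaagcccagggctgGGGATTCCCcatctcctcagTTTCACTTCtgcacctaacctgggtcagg
H2-Q4, chr17:35379419-35379492, plus strand: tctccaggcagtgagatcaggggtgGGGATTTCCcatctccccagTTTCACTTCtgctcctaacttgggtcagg
H2-Q7, chr17:35438997-35439070, plus strand: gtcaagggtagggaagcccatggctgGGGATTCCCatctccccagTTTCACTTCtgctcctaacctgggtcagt
H2-M3, chr17:37270088-37270161, plus strand: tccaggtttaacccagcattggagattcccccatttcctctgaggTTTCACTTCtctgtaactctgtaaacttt
B2m, chr2:122147503-122147576, plus strand: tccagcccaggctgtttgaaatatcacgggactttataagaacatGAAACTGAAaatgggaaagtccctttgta
H2-T23, chr17:36032796-36032869, minus strand: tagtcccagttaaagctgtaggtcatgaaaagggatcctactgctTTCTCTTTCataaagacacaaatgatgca
H2-T22, chr17:36042904-36042977, minus strand: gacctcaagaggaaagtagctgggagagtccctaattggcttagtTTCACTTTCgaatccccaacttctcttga

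One or the other spacing of the interferon element core was found in 8 of the 9 promoters. It was in 14.8% of 32817 mouse promoters of the same length. The 8 of 9 rests in part on GAANNGAAA, chosen after these promoters were read, so it is no test against all promoters. The same holds for GGGATTCCC. GAAANNGAA, fixed before the promoters were read, was in 3 of the 9 (B2m, H2-T23 and H2-T22) and in 8.55% of all promoters. GAANNGAAA was in H2-K1, H2-D1, H2-Q4, H2-Q7 and H2-M3 and in 7.52% of all promoters. GGGATTCCC lay just upstream of it in H2-K1, H2-D1 and H2-Q7, and was found in 0.354% of all promoters. The related GGGANTTCC, shown in capitals for H2-Q4, was in 1.68% of all promoters and overlapped none of the other matches. CCAAT, the core of the Y box, was in 8 of the 9 and in 37.4% of all promoters. TTCNNNGAA, the site of STAT dimers, was in H2-M3 and in 8.29% of all promoters, and TGACGTCA, the cyclic AMP response element, was in none of the 9 and in 1.79% of all promoters. The stretch of H2-K1 and that of H2-D1 carry the same pair of matches at the same spacing, which is also the arrangement in H2-Q4. H2-T3 held none of these motifs, and its whole window of 300 bases is given for comparison, with nothing in capitals.
H2-T3, chr17:36190102-36190401, minus strand: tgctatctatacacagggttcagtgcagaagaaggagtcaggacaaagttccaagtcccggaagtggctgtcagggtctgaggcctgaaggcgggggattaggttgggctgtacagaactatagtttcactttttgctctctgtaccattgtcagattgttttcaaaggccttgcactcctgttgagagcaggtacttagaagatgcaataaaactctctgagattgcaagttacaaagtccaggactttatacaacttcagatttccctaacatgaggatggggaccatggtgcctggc
A match is a run of letters and does not show that a factor binds there.

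All 10 class I genes were higher in PIM1+/- libraries. Each passed limma's test across 12760 genes (adjusted p under 0.05), and for each of the 10 every PIM1+/- library lay above every WT library. Of all genes tested 8.93% were called higher and 8.54% lower, and 11.9% were higher in PIM1+/- libraries with no overlap between genotypes. Because the 10 were chosen with earlier results of these data known, these shares give no test of the 10 as a group. Log2 fold changes, computed on log2(TPM + 1), which understates the change of low genes, ran from 0.46 to 3.63 with a median of 1.18, beside a median of -0.01 over all genes tested. All 10 reached 1 TPM in every library, so none entered the test through 1 genotype alone. Scaling changed how many genes were called in each direction: after upper quartile scaling 926 genes were called higher and 1520 lower, and after removing mitochondrial transcripts and their nuclear copies 736 higher and 2237 lower, where the deposited TPM gave 1139 higher and 1090 lower. These transcripts made up 206870 to 232748 TPM in PIM1+/- libraries and 268777 to 301369 TPM in WT libraries, and removing them moved the median log2 fold change of all genes by -0.10, to -0.11. All 10 class I genes were higher and past the threshold under both scalings, with a median log2 fold change of 1.13 after upper quartile scaling and 1.07 without mitochondrial transcripts.

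**Figure D1:**
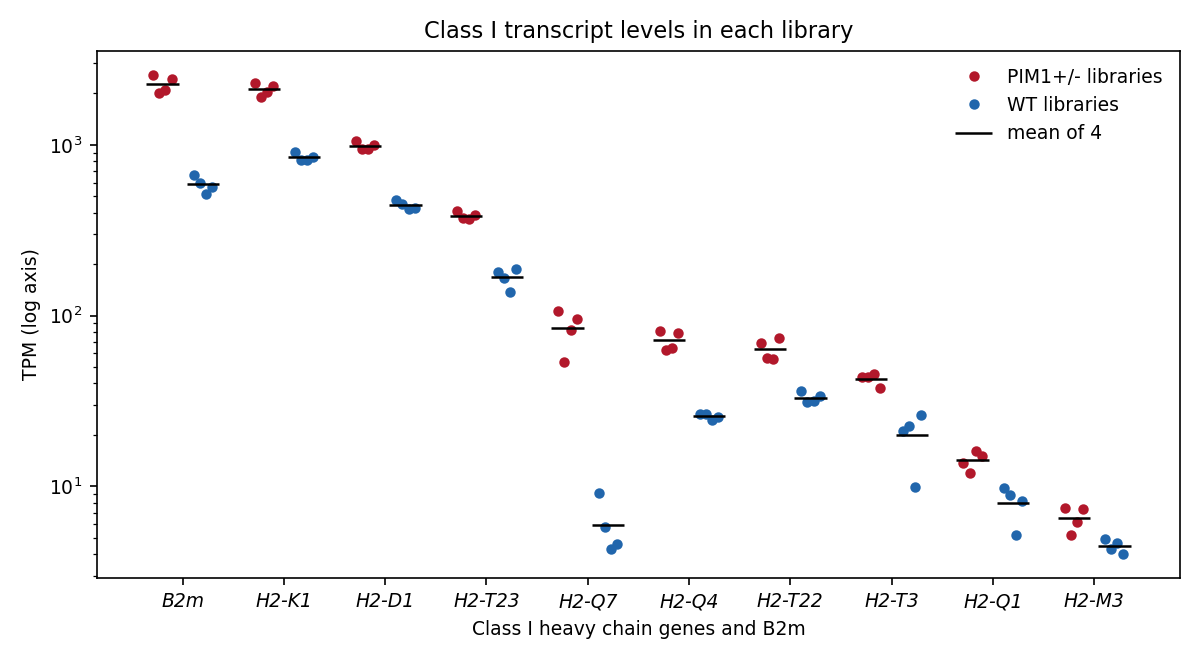
TPM of each class I gene on a log axis, 1 point per library and a bar at the mean of 4 libraries, with PIM1+/- left of WT for each gene. In every gene the PIM1+/- points lie above the WT points, with the widest gap for H2-Q7, at 53.8 to 106 TPM in PIM1+/- libraries and 4.32 to 9.12 TPM in WT libraries.

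The classical heavy chains were the most abundant. H2-K1 (chromosome 17, 33996017 to 34000347, minus strand, GRCm38), the K molecule that presents peptides to CD8 T cells, had 2316, 1899, 2032 and 2207 TPM in PIM1+/- replicates 1 to 4, against 902, 810.1, 813 and 851 TPM in WT replicates 1 to 4. The lowest PIM1+/- library was above the highest WT library by a wide margin and the WT libraries lay close together. Means were 2114 ± 185 TPM in PIM1+/- libraries and 843.8 ± 42.8 TPM in WT libraries (SD, n = 4 each), a log2 fold change of 1.32 ± 0.07 (SE, limma adjusted p = 8.36e-06). H2-D1 (chromosome 17, 35262730 to 35267499, plus strand), the D molecule with the same task, had 1059, 951, 949 and 997 TPM in PIM1+/- replicates 1 to 4, against 478, 447, 419.8 and 425 TPM in WT replicates 1 to 4. Its log2 fold change was 1.16 ± 0.06 (SE, limma adjusted p = 8.36e-06), and its libraries also kept apart by genotype. H2-K1 was above H2-D1 in every library. The ratio of H2-K1 to H2-D1, taken in each library, had a mean of 2.13 in PIM1+/- libraries and 1.91 in WT libraries.

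The light chain changed more than either classical heavy chain. B2m (chromosome 2, 122147686 to 122153083, plus strand), which lies outside the H2 region and is needed by every heavy chain named here, had 2574, 2022, 2086 and 2414 TPM in PIM1+/- replicates 1 to 4, against 667, 598, 515 and 567 TPM in WT replicates 1 to 4. Means were 2274 ± 263 TPM in PIM1+/- libraries and 586.7 ± 63.2 TPM in WT libraries (SD, n = 4 each). The log2 fold change was 1.95 ± 0.10 (SE, limma adjusted p = 8.36e-06), with a 95% interval of 1.73 to 2.17. By mean TPM it was the gene at rank 36 of the table in PIM1+/- libraries and at rank 214 in WT libraries. The order of light chain and K heavy chain also differed. B2m was above H2-K1 in each of the 4 PIM1+/- libraries, though the ranges of the 2 genes overlapped, and below H2-K1 in each of the 4 WT libraries.

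Among the non-classical genes of the Q region, H2-Q7 had the largest change of the 10 and stood at rank 16 by log2 fold change among all genes tested. H2-Q7 (chromosome 17, 35439155 to 35443773, plus strand) encodes a heavy chain of the Qa-2 antigen, which is anchored in the membrane by glycosylphosphatidylinositol. It had 106, 53.8, 82.1 and 95.9 TPM in PIM1+/- replicates 1 to 4, against 9.12, 5.75, 4.32 and 4.59 TPM in WT replicates 1 to 4. PIM1+/- replicate 2 was the lowest of its group and still far above WT replicate 1, the highest of the WT libraries. Means were 84.4 ± 22.6 TPM in PIM1+/- libraries and 5.95 ± 2.21 TPM in WT libraries (SD, n = 4 each), and the log2 fold change was 3.63 ± 0.25 (SE, limma adjusted p = 3.56e-05).

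H2-Q4 and H2-Q1 lie in the same Q region as H2-Q7. H2-Q4 (chromosome 17, 35379617 to 35385290, plus strand) had 81.1, 63.15, 64.7 and 79.3 TPM in PIM1+/- replicates 1 to 4, against 26.5, 26.3, 24.5 and 25.6 TPM in WT replicates 1 to 4. The WT values were nearly equal and the PIM1+/- values all lay well above them, with a log2 fold change of 1.44 ± 0.09 (SE, limma adjusted p = 2.25e-05). H2-Q1 (chromosome 17, 35320405 to 35325099, plus strand) was far lower, with 13.8, 12.0, 16.2 and 15.1 TPM in PIM1+/- replicates 1 to 4, against 9.82, 8.88, 5.21 and 8.22 TPM in WT replicates 1 to 4. Its groups came closer to each other than those of H2-Q4, and the log2 fold change was 0.78 ± 0.17 (SE, limma adjusted p = 0.0142).

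In the T region, H2-T23 (chromosome 17, 36029773 to 36032855, minus strand) encodes Qa-1, which presents leader peptides of other class I heavy chains to the CD94/NKG2 receptors of NK cells. It was the most abundant non-classical heavy chain, with 407, 372, 365 and 388 TPM in PIM1+/- replicates 1 to 4, against 179, 165, 138 and 186 TPM in WT replicates 1 to 4. The change was close to that of H2-D1, at a log2 fold change of 1.2 ± 0.09 (SE, limma adjusted p = 6.52e-05). H2-T22 (chromosome 17, 36037128 to 36042747, minus strand), a ligand of some gamma delta T cell receptors, had 68.95, 56.6, 55.4 and 73.5 TPM in PIM1+/- replicates 1 to 4, against 36.1, 31.0, 31.5 and 33.8 TPM in WT replicates 1 to 4. Its log2 fold change was 0.91 ± 0.10 (SE, limma adjusted p = 0.000541).

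H2-T3 (chromosome 17, 36185572 to 36190287, minus strand), the TL antigen gene, had 43.8, 43.85, 45.2 and 37.7 TPM in PIM1+/- replicates 1 to 4, against 21.2, 22.6, 9.85 and 26.1 TPM in WT replicates 1 to 4. WT replicate 3 was far below the other WT libraries, and the groups did not overlap with or without it. Means were 42.65 ± 3.36 TPM in PIM1+/- libraries and 19.9 ± 7.02 TPM in WT libraries (SD, n = 4 each), a log2 fold change of 1.14 ± 0.25 (SE, limma adjusted p = 0.0143). Without WT replicate 3 the log2 fold change was 0.85 (limma adjusted p = 0.00149). When genes of any level entered the test the adjusted p was 0.0503.

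H2-M3 (chromosome 17, 37270220 to 37274484, plus strand), which presents N-formylated peptides such as those of bacteria and mitochondria, was the lowest of the 10 in PIM1+/- libraries. It had 7.43, 5.22, 6.16 and 7.36 TPM in PIM1+/- replicates 1 to 4, against 4.90, 4.28, 4.68 and 4.02 TPM in WT replicates 1 to 4. PIM1+/- replicate 2 was close to WT replicate 1. The log2 fold change of 0.46 ± 0.12 (SE, limma adjusted p = 0.0298) did not pass the threshold when any 1 of 7 of the 8 libraries was left out, with an adjusted p of up to 0.0787, and without PIM1+/- replicate 2 it was 0.54 (limma adjusted p = 0.0169).

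Ranked by TPM, B2m and H2-K1 came first in PIM1+/- libraries, then H2-D1 and H2-T23, each clear of its neighbour. H2-Q7, H2-Q4 and H2-T22 followed with overlapping ranges, and H2-T3, H2-Q1 and H2-M3 came last, each apart. In WT libraries the order was H2-K1, B2m, H2-D1, H2-T23 and H2-T22, each apart from the next, then H2-Q4 and H2-T3 with overlapping ranges, and last H2-Q1, H2-Q7 and H2-M3, whose neighbours overlapped. The place of H2-Q7 differed most: it was among the low genes in WT libraries and in the middle group in PIM1+/- libraries. Libraries of 1 genotype also differed in how they ranked across these 10 genes. PIM1+/- replicate 1 was the highest of its group for 7 of the 10 genes and PIM1+/- replicate 2 the lowest for 6, while WT replicate 1 was the highest for 8 and WT replicate 3 the lowest for 7.

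Heavy chain genes are so alike that reads can be divided among them by estimation, so their sum is also given. The sum covers the 29 heavy chain genes with a numbered K, Q, T or M symbol, H2-D1 or H2-Bl, 9 of them described above, and pseudogenes such as H2-K2 are included. The pseudogene H2-T-ps, which has no number in its symbol, is not. Their TPM summed to 4344, 3666, 3859 and 4142 in PIM1+/- replicates 1 to 4, against 1777, 1621, 1532 and 1668 in WT replicates 1 to 4, a ratio of means of 2.43 with no overlap. H2-K1 and H2-D1 together held 77.5% of this sum in PIM1+/- libraries and 78.0% in WT libraries. H2-T23 held 9.59% in PIM1+/- libraries and 10.1% in WT libraries. As a ratio between genotypes, the share of H2-Q7 differed most of the 9, with 2.09% of the sum in PIM1+/- libraries and 0.356% in WT libraries. In percentage points H2-D1 differed more, with 24.7% in PIM1+/- libraries and 26.8% in WT libraries. H2-T22 and H2-M3 held less of the sum in PIM1+/- libraries, at 1.59% and 0.163% in PIM1+/- libraries against 2.01% and 0.272% in WT libraries. No test was run on the shares.

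Heavy chains were also set against the light chain in the same library. The heavy chain sum was 1.77 ± 0.0772 times the TPM of B2m in PIM1+/- libraries and 2.82 ± 0.158 times in WT libraries (SD, n = 4 each). In a limma fit of each gene relative to B2m across all genes, 8 of the 9 heavy chains were lower relative to B2m in PIM1+/- libraries, as were 98.7% of all genes tested, since B2m itself was higher. H2-K1 changed by -0.63 ± 0.12 relative to B2m on the log2 scale (SE, limma adjusted p = 9.35e-05), H2-D1 by -0.79 ± 0.12 (SE, limma adjusted p = 4.99e-06) and H2-M3 by -1.50 ± 0.15 (SE, limma adjusted p = 6.33e-08). H2-Q7 alone of the 9 was higher relative to B2m, by 1.67 ± 0.17 (SE, limma adjusted p = 5.96e-08), and 0.4% of all genes tested were called in that direction.

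**Figure D2:**
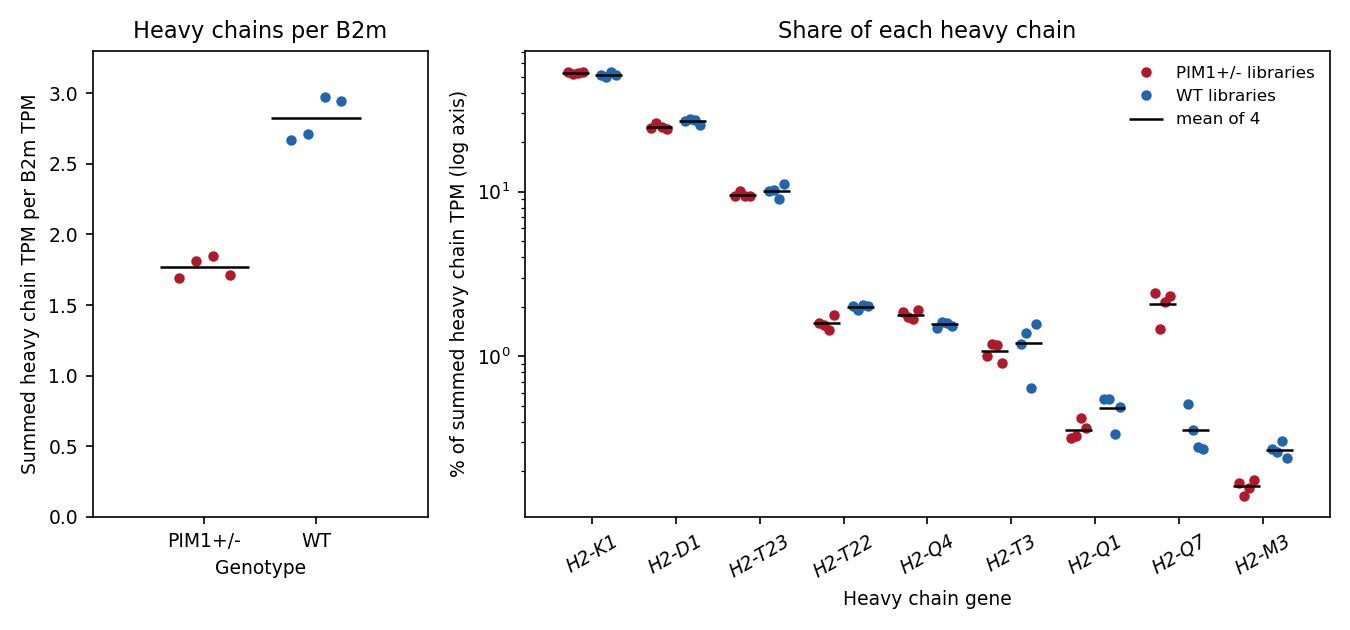
Left, summed TPM of 29 class I heavy chain genes per TPM of B2m; right, percent of that sum held by each of 9 heavy chains, on a log axis. Points are libraries and bars means of 4, with PIM1+/- left of WT. The ratio to B2m is lower in all 4 PIM1+/- libraries, at a mean of 1.77 in PIM1+/- libraries and 2.82 in WT libraries, and H2-K1 holds 52.8% of the sum in PIM1+/- libraries and 51.2% in WT libraries.

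Sequence sharing bears on how far the levels of single genes can be separated. Of the windows of 100 bases in annotated transcripts (GENCODE M21, GRCm38), 12.0% of those of H2-Q7 occur unchanged in transcripts of other genes, 5.56% in H2-Q10. The share was 8.86% for H2-T22, mostly in H2-T10, 8.05% for H2-Q1, 3.59% for H2-D1, 3.15% for H2-T23, 2.16% for H2-Q4 and 0.957% for H2-K1. B2m, H2-T3 and H2-M3 shared no window. The levels of H2-Q7, H2-T22 and H2-Q1 are therefore the less certain ones. H2-T23 shared most with Gm7030, at 1.92% of its windows. Gm7030 is outside the heavy chain sum, so that sum does not take in every gene with shared sequence. H2-Q6, the neighbour of H2-Q7, kept nearly the same proportion to it, with H2-Q7 at 2.26 times H2-Q6 in PIM1+/- libraries and 2.17 times in WT libraries. The sum of H2-Q6 and H2-Q7 was 122 ± 32.3 TPM in PIM1+/- libraries and 8.64 ± 2.96 TPM in WT libraries (SD, n = 4 each), a 14.1-fold ratio of means.

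Of the other 20 heavy chain genes, 8 were listed at 0 in every library, all of the M region (H2-M1, H2-M9, H2-M11, H2-M10.1, H2-M10.2, H2-M10.3, H2-M10.4 and H2-M10.5), and 8 were tested. Of these, 6 were higher in PIM1+/- libraries and 0 lower, beside 8.93% and 8.54% of all genes tested. H2-Q6, at 37.4 ± 10.1 TPM in PIM1+/- libraries and 2.70 ± 0.759 TPM in WT libraries (SD, n = 4 each), rose by a log2 fold change of 3.36. H2-Q5 had 19.8 ± 4.99 TPM in PIM1+/- libraries and 2.35 ± 0.483 TPM in WT libraries, a log2 fold change of 2.61. Like H2-T10 and H2-Bl below, H2-Q5 is annotated as a polymorphic pseudogene. H2-Q6, H2-Q5 and H2-Q7, which lie side by side, were thus the heavy chains with the largest changes. H2-Q10, known in the liver as a secreted heavy chain, had 21.1 ± 3.90 TPM in PIM1+/- libraries and 7.26 ± 0.859 TPM in WT libraries, and H2-Q2 had 125 ± 8.45 TPM in PIM1+/- libraries and 62.5 ± 10.9 TPM in WT libraries. H2-T24 and H2-T10 were also called higher, with log2 fold changes of 1.63 and 1.06, but were under 1 TPM in every WT library and entered the test only through PIM1+/- libraries. The remaining pair did not pass: H2-K2, annotated as a pseudogene, had 21.4 ± 2.81 TPM in PIM1+/- libraries and 20.9 ± 3.09 TPM in WT libraries (log2 fold change 0.04 ± 0.12, limma adjusted p = 0.878), and H2-Bl had 1.77 ± 0.846 TPM in PIM1+/- libraries and 1.39 ± 0.150 TPM in WT libraries (limma adjusted p = 0.643).

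**Figure D3:**
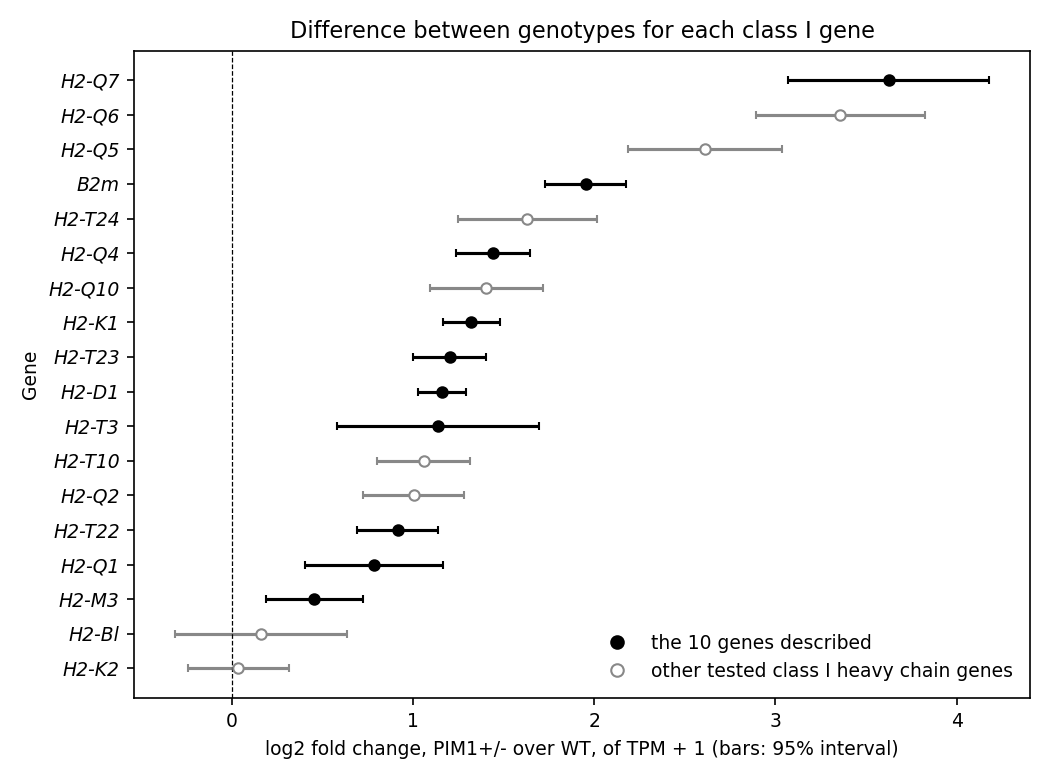
Log2 fold change of TPM + 1, PIM1+/- over WT, with 95% intervals, of the 10 class I genes (filled points) and the 8 other tested heavy chain genes (open points), ordered by size. H2-Q7 at 3.63, H2-Q6 at 3.36 and H2-Q5 at 2.61 stand above B2m at 1.95, and the intervals of H2-Bl and H2-K2 include 0.

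The genes that supply and load peptides, or that regulate class I, were followed as a list of 26. All 26 were tested, 18 were higher in PIM1+/- libraries, 0 were lower and 8 did not pass, with a median log2 fold change of 0.52. Of all genes tested 8.93% were called higher and 8.54% lower. This list, too, was chosen with earlier results of these data known. Without mitochondrial transcripts 16 of the 26 were higher and 1 was lower, with a median log2 fold change of 0.41. The immunoproteasome subunit Psmb8 had 187 ± 17.7 TPM in PIM1+/- libraries and 38.85 ± 9.01 TPM in WT libraries (log2 fold change 2.26), and Psmb10, another of these subunits, had 213 ± 7.82 TPM in PIM1+/- libraries and 113 ± 15.1 TPM in WT libraries (log2 fold change 0.91). Of the constitutive subunits that these replace, Psmb7 and Psmb5 were higher by 0.32 and 0.28 on the log2 scale, and Psmb6 had a log2 fold change of 0.20 (limma adjusted p = 0.053). The PA28 activator subunit Psme1 had a log2 fold change of 0.72 and was called, and its partner Psme2, at 0.61, was not (limma adjusted p = 0.0536).

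Chaperones of the loading complex were also on the list. Calr, which encodes calreticulin, had 486 ± 68.1 TPM in PIM1+/- libraries and 362 ± 31.8 TPM in WT libraries (SD, n = 4 each), a log2 fold change of 0.42, and Pdia3, its partner disulfide isomerase, one of 0.41. Canx, which encodes calnexin and folds newly made heavy chains, had a log2 fold change of 0.23 (limma adjusted p = 0.0781). The genes named next were chosen after their values were seen. Tap1, a subunit of the transporter that brings peptides into the endoplasmic reticulum, had 63.4 ± 11.6 TPM in PIM1+/- libraries and 12.3 ± 2.97 TPM in WT libraries, a log2 fold change of 2.28, while its partner Tap2 had one of 0.90. Nlrc5, the transactivator of class I genes, had 25.8, 13.9, 15.6 and 30.4 TPM in PIM1+/- replicates 1 to 4, against 1.32, 1.27, 0.56 and 1.38 TPM in WT replicates 1 to 4. Its log2 fold change of 3.35 ± 0.25 (SE, limma adjusted p = 6.52e-05) was the largest of the list. Stat2 and Irf9, which carry interferon signals to the nucleus, were higher by 1.67 and 1.55 on the log2 scale, and tapasin (Tapbp) and Erap1, the peptide trimming enzyme, by 0.54 and 0.47. The RFX genes did not pass the test.

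**Figure D4:**
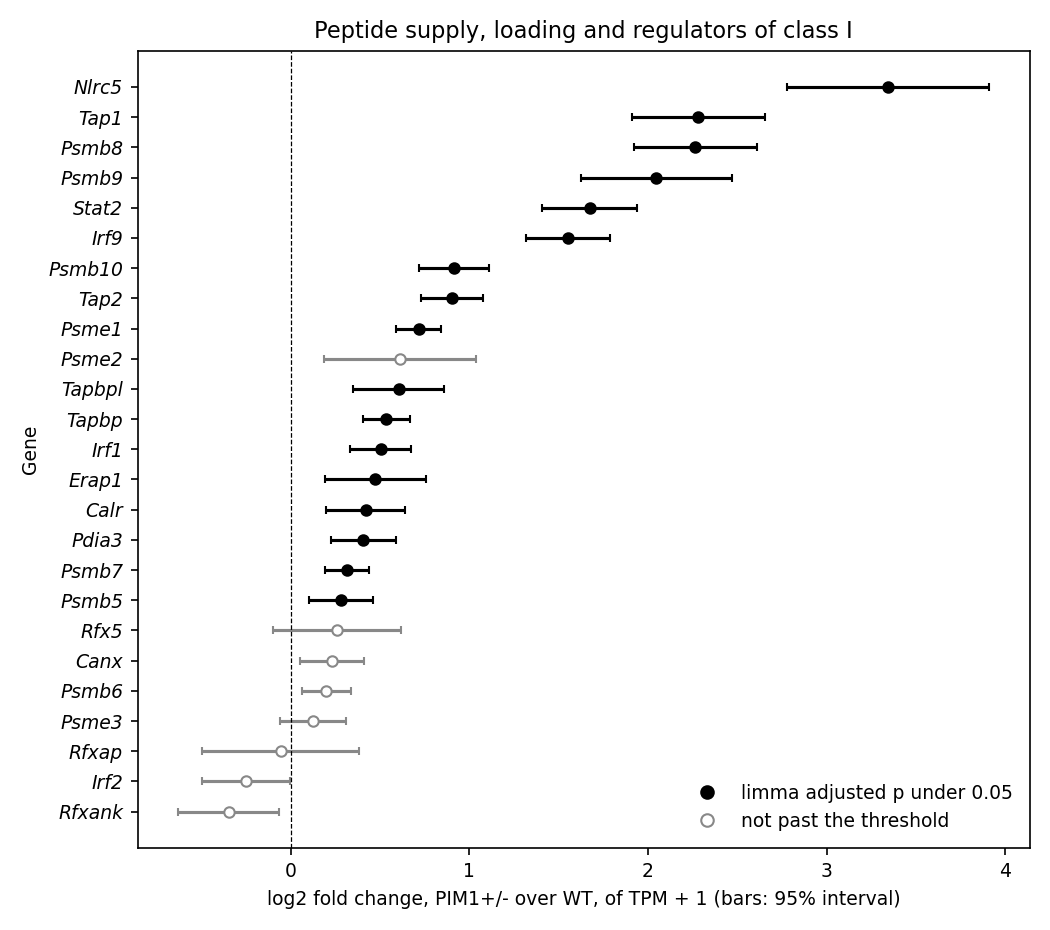
Log2 fold change of TPM + 1, PIM1+/- over WT, with 95% intervals, of 25 of the 26 genes of peptide supply, peptide loading and class I regulation, ordered by size. Filled points passed the limma threshold, from Nlrc5 at 3.35 to Psmb5 at 0.28, and open points did not.

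Of the class I-like genes outside the K, D, Q, T and M regions, 12 were listed and 6 tested, 0 were higher and 2 were lower, with a median log2 fold change of -0.35. Over all genes tested 8.54% were called lower and 8.93% higher. Cd1d1, which presents lipids to NKT cells and also pairs with beta-2-microglobulin, had 3.06 ± 0.492 TPM in PIM1+/- libraries and 8.255 ± 1.75 TPM in WT libraries (SD, n = 4 each), and fell by 1.18 ± 0.16 on the log2 scale (SE, limma adjusted p = 0.00164). Fcgrt, the heavy chain of the neonatal Fc receptor, had 30.8 ± 3.72 TPM in PIM1+/- libraries and 39.3 ± 3.65 TPM in WT libraries and fell by 0.35 ± 0.10 (SE, limma adjusted p = 0.0424).

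Markers of leukocytes were measured in the same libraries. Markers of T cells, NK cells and intraepithelial lymphocytes summed to 49.55 to 116 TPM in PIM1+/- libraries and 14.0 to 29.0 TPM in WT libraries, and 9 of the 11 tested, of 16 listed, were higher. Of these 9, Cd8a and Itgae were under 1 TPM in every WT library. For this and the counts that follow, the share called higher over all genes tested was 8.93%. Markers of macrophages, dendritic cells and granulocytes summed to 13.7 to 16.1 TPM in PIM1+/- libraries and 1.68 to 4.52 TPM in WT libraries, with S100a9 listed at 0 in every library and 2 of the 3 tested, of 12 listed, higher. The 2 were Mcpt1, which was under 1 TPM in every WT library, and C1qa, which was under 1 TPM in all WT libraries but replicate 4, and Cd68 was not called. B and plasma cell markers summed to 8.28 to 13.5 TPM in PIM1+/- libraries and 4.28 to 14.5 TPM in WT libraries, and endothelial markers to 3.22 to 4.2 TPM in PIM1+/- libraries and 3.55 to 5.76 TPM in WT libraries. Of the receptors that bind class I, 3 of 8 were tested and 2 were higher. Cd8a, the coreceptor chain that TL antigen binds, had 2.57 ± 1.29 TPM in PIM1+/- libraries and 0.59 ± 0.164 TPM in WT libraries (log2 fold change 1.10, limma adjusted p = 0.015). It was under 1 TPM in every WT library and entered the test only through PIM1+/- libraries. Cd160 had a log2 fold change of 0.72 (limma adjusted p = 0.0416). In bulk RNA, fewer cells of a type and less RNA per cell cannot be told apart.

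Class I genes are also expressed by leukocytes, so the marker level was set beside them. The mean log2(TPM + 1) of the 11 tested lymphocyte markers was 2.09 to 2.99 in PIM1+/- libraries and 1.03 to 1.54 in WT libraries, with no overlap, so genotype and marker level can hardly be separated in 8 libraries. With that mean as a covariate, which was added once the values were known, 0.188% of all genes (24 of 12760) were called. Among them were B2m, H2-D1 and H2-K1 with log2 fold changes of 1.68, 1.09 and 1.12 (limma adjusted p = 0.0481, 0.0481 and 0.0485), and none of the other 7 class I genes. H2-Q7 had a log2 fold change of 2.69 in that fit, H2-Q4 1.22, H2-T23 0.95, H2-T22 0.65, H2-T3 0.52, H2-M3 0.2 and H2-Q1 -0.01 (limma adjusted p of 0.0966 to 0.992), and the median of the 10 was 1.02. B2m stood at 391 to 891 times the TPM of Ptprc, the pan-leukocyte gene, in PIM1+/- libraries and at 294 to 406 times in WT libraries. The order of PIM1+/- libraries differed between single markers, which were named after their values were seen. Ptprc had 2.89, 2.42, 5.33 and 5.25 TPM in PIM1+/- replicates 1 to 4, highest in replicates 3 and 4. Cd3e, Cd3g, Cd8a, Cd7, Itgae, Nkg7, Ccl5 and Trac were also highest in PIM1+/- replicate 3 or 4. The mean of the 11 markers was 2.48, 2.09, 2.85 and 2.99 in PIM1+/- replicates 1 to 4. Only the granzyme genes Gzma and Gzmb were highest in PIM1+/- replicate 1, at 16.9 and 7.56 TPM. They were lowest in PIM1+/- replicate 2, at 6.91 and 4.6 TPM, as were the other tested markers. PIM1+/- replicates 1 and 2 were most often the highest and the lowest of their group for the class I genes. How far lymphocyte RNA contributes to the class I levels was not tested.

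The genes most like B2m across the 8 libraries were found by the root mean square difference of centred log2(TPM + 1). They were Cd177 (0.124), Sp100 (0.133), Lgals3bp (0.136), Oas1a (0.152) and C2 (0.168), where a smaller value is more alike. Those most like H2-T3 were Tbx3 (0.0928), Prap1 (0.118), B4galnt2 (0.169), Cyp2c65 (0.173) and Hoxb6 (0.192). WT replicate 3 was the lowest library for all 5 of the genes most like H2-T3, as for H2-T3. The 5 were picked for likeness to H2-T3 over these same libraries, so sharing its low library follows from that choice. These are descriptions over 8 libraries that fall into 2 genotypes, and H2-T3 did not share a gene of its list with B2m.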

How the data were processed

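RNA from colon epithelium was measured in 8 libraries, and the values the authors deposited are TPM per gene, quantified with RSEM per the series' design text. Per the submitters' processing notes HISAT2, StringTie, RSEM and edgeR were used with GRCm38.p6. What each tool did, with which version, strand setting and annotation, and how deep the libraries were is not given in those notes or in the labels. All 8 per-sample columns were used (0 were left out).

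Log2(TPM + 1) was fitted on genotype with limma 3.58.1 in R 4.3.3 (two-sided, empirical Bayes moderation with a trend on the mean, Benjamini-Hochberg over all genes, threshold 0.05). The 12760 genes tested reached 1 TPM in 4 or more libraries, and a gene could enter through 1 genotype. Of the gene IDs 55227 were found in GENCODE M21. Nuclear copies of mitochondrial genes were found with BLAST+ 2.17.0. The fit was checked on simulated data. Figures were drawn with matplotlib 3.10.9.

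The 10 genes and all lists were chosen with earlier results of these data known. Besides the 10, the text names other heavy chains with a mean of at least 1 TPM, up to 10 genes of a list by highest mean TPM, and the 5 genes most like B2m and H2-T3. Exceptions are marked, and 1 gene of the loading and regulation list is counted but not reported here on its own. Alternatives were a replicate block, upper quartile scaling, no mitochondrial transcripts, testing every gene, testing those averaging 5 TPM or more, adding 0.1 instead of 1 TPM, no trend, and leaving out each library. A lymphocyte covariate was added after the data were seen.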

Additional observations from a re-analysis of the deposited data

Results flagged for a closer look

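Within each genotype, 88 groups of 4 libraries were searched for a library far from the others. In all, 4 were found, close to the 1 in 20 that chance gives. H2-Q2 had 46.4 TPM (46.37) in WT replicate 3, against 66.1 to 69.7 TPM in the other WT libraries. Nlrc5 had 0.56 TPM in WT replicate 3, against 1.27 to 1.38 TPM in the other WT libraries. Erap1 had 35.6 TPM (35.61) in WT replicate 2, above the 25.0 to 26.0 TPM of the other WT libraries. Psmb5 had 104 TPM (104.05) in WT replicate 4, below the 123 to 125 TPM of the other WT libraries. WT replicate 3, low for H2-Q2 and Nlrc5, was also the lowest WT library for 7 of the 10 class I genes.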

How the results depend on the processing

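Of 160 recalculated log2 fold changes of the 10 class I genes under 16 alternatives, 143 kept their direction and their call, 16 kept only their direction and 1 reversed. The reversal was H2-Q1 at -0.012 (limma adjusted p = 0.992) with the lymphocyte marker level as a covariate. That covariate left 3 of the 10 class I genes called, 0 of the 26 loading and regulation genes and 0 of the other heavy chain genes. Median log2 fold changes were 1.02 for the 10, 0.42 for the loading and regulation genes and 0.85 for the other heavy chains, where the fit without it gave 1.18, 0.52 and 1.23; the cause was not tested. It left 6 of 9 heavy chains called relative to B2m, where every other alternative left 9. Without a filter 8 of the 10 were called, H2-T3 and H2-M3 being lost. Leaving out 1 library gave 9 to 10 of the 10, 15 to 21 of the 26 loading and regulation genes, and a heavy chain sum ratio of 2.36 to 2.50. Over all genes 2229 were called, 2973 without mitochondrial transcripts, 1444 with the replicate block, 1439 without a filter, 24 with the covariate and 1388 to 2057 with 1 library left out.

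Same-numbered libraries did not deviate together (correlations of -0.136 to 0.032). These values show no pairing by number, but with 4 libraries per genotype they cannot exclude one. With the replicate number as a block 9 of the 10 class I genes were called and H2-M3 was not (limma adjusted p = 0.0559). No PIM1+/- library correlated best with the WT library of its own number. TPM gives no depth, so the precision of the low genes, H2-M3 and H2-Q1 above all, cannot be stated beyond the spread between libraries.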

Other observations

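Other genes of the chromosome 17 interval that holds the H2 region, from H2-K1 to H2-M3 (33996017 to 37274484, GRCm38), were counted without the 29 class I heavy chain genes above and without class II and loading genes. Of 89 tested, the class I pseudogene H2-T-ps (log2 fold change 0.43, not called) among them, 22.5% were higher in PIM1+/- libraries and 5.62% lower, against 8.72% and 8.01% of 562 tested genes on the rest of the chromosome. Named after their values were seen, C2, a complement component, had a log2 fold change of 1.71, the butyrophilin-like gene Btnl2 one of 1.64, and Ubd, a ubiquitin-like modifier, one of 1.40. The predicted gene Gm20427 fell by 0.87. Pim1 lies on the same chromosome, and of the 72 tested genes between it and H2-K1 6.94% were higher and 2.78% lower.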
